A study of Mus musculus with 16 samples.

Results

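The Smarca4 and Smarca2 loci were taken as all accessible regions that lay wholly within chr9:21370000-21560000 (Smarca4) or chr19:26620000-26910000 (Smarca2) of the mouse mm9 build. These windows held 95 of the 250313 regions in the deposited table, 47 in the Smarca4 window and 48 in the Smarca2 window. The members were chosen by position and not by any measured value, although earlier results of these data were already known. Smarca4 encodes Brg1 and Smarca2 encodes Brm, the alternative ATPase subunits of the SWI/SNF (BAF) chromatin remodelling complexes. Each complex carries either Brg1 or Brm, uses ATP to slide or evict nucleosomes, and so opens DNA for transcription factors. The paralogues overlap in function, and in Brg1-deficient cells Brm is known to sustain part of the activity of the complex.

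The assay was ATAC-seq, which cuts and tags accessible DNA with the transposase Tn5, so the values describe open chromatin at these genes and not their RNA or protein. The 16 libraries came from thymic medullary epithelial cells (mTECs) of C57BL/6 mice aged 4 weeks, sorted as negative for DAPI and CD45, positive for EpCAM and UEA and low for Ly51, at 60000 cells per reaction. They formed 8 groups of 2 libraries: Brg1-/- and Brg1+/+ and Aire-/- and Aire+/+, each as cells with high (mTEChi) or low (mTEClo) surface MHC class II. Aire is a nuclear factor that drives expression of tissue-restricted antigens in mTECs, and most cells that make it are mTEChi. The Brg1+/+ libraries carry the description NOCRE, so the Brg1-/- and Brg1+/+ groups may also differ in a Cre transgene. The sources used here do not give its driver or the deleted part of Smarca4. No label gives the mice behind the 2 libraries of a group, so the spread that p-values rest on may be technical. The labelled cell type was not checked against its markers, because regions were not linked to other genes here. In these bulk samples, fewer cells with an open region and a less open region in each cell cannot be told apart.

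The promoters of the genes are shown first, because they are the sequence at which transcription of either ATPase begins. Both are the 250 bases before the annotated start, from RefSeq on GRCm38.p6, plus strand, at chr9:21615919-21616168 for Smarca4 and chr19:26604910-26605159 for Smarca2. Capitals mark GC boxes, searched as GGGCGG on both strands, so that CCGCCC is the same motif read on the other strand.
Smarca4: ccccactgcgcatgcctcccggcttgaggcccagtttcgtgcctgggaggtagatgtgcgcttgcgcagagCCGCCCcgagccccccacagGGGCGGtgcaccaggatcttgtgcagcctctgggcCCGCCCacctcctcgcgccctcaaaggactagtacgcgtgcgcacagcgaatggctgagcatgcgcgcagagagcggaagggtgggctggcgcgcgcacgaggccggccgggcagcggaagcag
Smarca2: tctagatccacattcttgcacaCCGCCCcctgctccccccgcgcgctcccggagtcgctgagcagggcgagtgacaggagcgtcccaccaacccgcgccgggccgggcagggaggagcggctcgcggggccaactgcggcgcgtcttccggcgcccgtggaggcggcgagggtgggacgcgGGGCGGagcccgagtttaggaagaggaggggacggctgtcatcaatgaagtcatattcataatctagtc
The Smarca4 promoter held 3 GC boxes and 25 CpG dinucleotides, and the Smarca2 promoter held 2 GC boxes and 28 CpG dinucleotides. Across 32851 promoters of the same length in that table, 32.7% held a GC box and the median was 6 CpG dinucleotides, which placed Smarca4 at the 89.3rd percentile of CpG count and Smarca2 at the 92.4th. The G and C content was 70.8% for Smarca4 and 68.4% for Smarca2, beside a median of 52.4%. Neither sequence held CCAAT or TATAAA on either strand, motifs present in 33.8% and 12.4% of promoters. These sequences are on another build than the ATAC-seq regions, so they were not placed on them.

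Each region was 500 bases long, and its value was the signal normalised by the authors, on a scale where the median region had 8.51 to 19.8 units per library and the 99th percentile was 214 to 217 units in every library. Read depth behind these values is unknown, and only 3 values of members, all in Aire-line libraries, were listed at 0. The windows are larger than the genes they are named for. Smarca4 spans 88.125 kb of the 190 kb window and Smarca2 spans 173.249 kb of the 290 kb window by their lengths in GRCm38, so some members may belong to neighbouring genes. In that annotation the protein-coding gene just before Smarca4 is Timm29. Dmrt2 lies before Smarca2, and Gm815 lies after it. Members were not assigned to promoters, exons or introns here.

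Both windows were denser in accessible regions than their chromosomes, with 24.7 regions per 100 kb at Smarca4, where chromosome 9 had 12.2, and 16.6 per 100 kb at Smarca2, where chromosome 19 had 12.3. At the ends of the Smarca4 window, the first and last members were chr9:21384820-21385319 and chr9:21558406-21558905, with mean signals of 10.8 and 25.1 units, and the nearest regions outside, chr9:21368779-21369278 and chr9:21563974-21564473, had 21.8 and 10.7 units. At the ends of the Smarca2 window, chr19:26620230-26620729 and chr19:26908931-26909430 had 17.9 and 26.3 units, and chr19:26567809-26568308 and chr19:26918311-26918810 just outside had 8.86 and 10.8 units. Runs were formed from members whose starts lay at most 2 kb apart, a distance chosen after the positions were seen. The longest run held 12 regions over 10253 bases at chr19:26820718-26830970 in the Smarca2 window. The next runs held 6 regions each, at chr19:26678500-26682717 and at chr9:21552448-21558905.

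A single region dominated each window. In the Smarca4 window it was chr9:21420266-21420765, with a mean of 237.4 units, above 99.3% of all regions in the table. In the Smarca2 window it was chr19:26679296-26679795, with a mean of 193.5 units, above 98.8% of all regions. Other members are named below by their distance in kb from the dominant region of their window, as in the Smarca4 -6.0 kb region. The next 3 regions of the Smarca4 window were chr9:21528525-21529024 (+108.3 kb) with 98.5 units, chr9:21414251-21414750 (-6.0 kb) with 92.0 units and chr9:21519489-21519988 (+99.2 kb) with 69.3 units. In the Smarca2 window they were chr19:26828900-26829399 (+149.6 kb) with 104.4 units, chr19:26827208-26827707 (+147.9 kb) with 77.3 units and chr19:26822127-26822626 (+142.8 kb) with 48.6 units. The median member had 15.99 units at Smarca4 and 17.8 units at Smarca2, near the 14.2 units of the median region in the whole table.

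**Figure D1:**
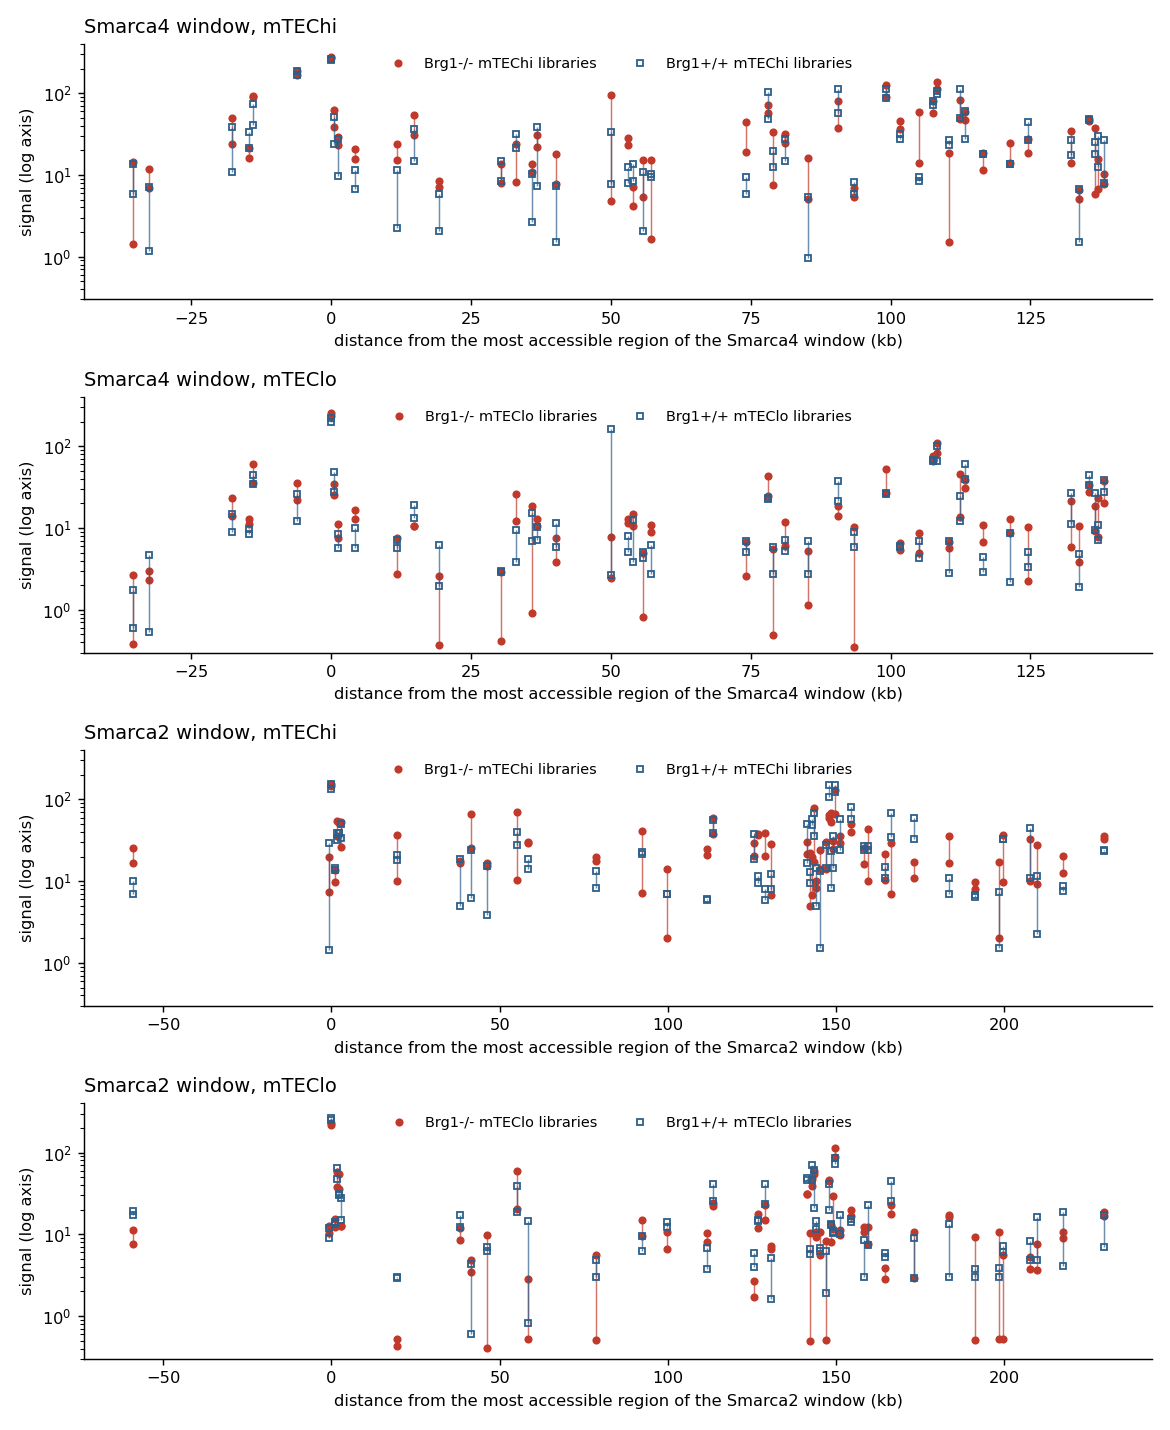
Signal (authors' normalised units, log axis) of every member in each Brg1-/- library (red circles) and Brg1+/+ library (blue squares) against distance in kb from the dominant region of the window, with a line joining the 2 libraries of a group. The dominant regions stood above 200 units at Smarca4 and above 134 units at Smarca2 in all 8 Brg1-line libraries, while many regions below 20 units differed several-fold between libraries of the same group.

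The first question was whether chromatin at the ATPase genes differed in cells lacking Brg1. Of the 95 members, 91 passed the filter on low signal (a mean of at least 7.48 units), 43 at Smarca4 and all 48 at Smarca2; the 4 that did not had means of 5.51 to 7.38 units. limma, with Benjamini-Hochberg adjustment over all 225281 tested regions, called 0 of the 91 at an adjusted p under 0.05 in mTEChi, where 0.0257% of all tested regions were called. It called 0 of the 91 in mTEClo, where 0.000444% of all regions were called. Without adjustment, 11 members had a p under 0.05 in mTEChi, 2 at Smarca4 and 9 at Smarca2, a share of members near the 10.7% of all regions, and 0 members had one in mTEClo, beside 6.15% of all regions. The Brg1 effect was not called as different between mTEChi and mTEClo at any member, nor at any of the tested regions (0.0% called), and 5 members had an unadjusted p under 0.05, beside 7.09% of all regions.

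The dominant Smarca4 region had 269.9 and 277.8 units in Brg1-/- mTEChi, against 251.9 and 260.4 units in Brg1+/+ mTEChi. In mTEClo it had 255.7 and 236.5 units in Brg1-/- cells, against 200.2 and 221.7 units in Brg1+/+ cells. In both sorts the Brg1-/- libraries were the higher and the groups did not overlap, but the differences on the log2(signal + 1) scale were small and not called, 0.10 in mTEChi and 0.22 in mTEClo. Relative to the median of all tested regions they were -0.13 in mTEChi and 0.17 in mTEClo, so the sign in mTEChi depends on the scaling. At the dominant Smarca2 region, Brg1-/- mTEChi had 145.8 and 154.0 units, against 154.4 and 134.2 units in Brg1+/+ mTEChi, and the groups overlapped. Brg1-/- mTEClo had 217.2 and 228.2 units there, against 262.8 and 246.6 units in Brg1+/+ mTEClo, lower in the Brg1-/- libraries without overlap, and this was not called.

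No member of the Smarca4 window was near absent in the Brg1-/- libraries of both sorts, and at every member the higher of the 2 libraries had at least 6.48 units in Brg1-/- mTEChi and at least 2.58 units in Brg1-/- mTEClo. Loss of ATAC-seq signal marks a deletion only where a region lies in the deleted DNA, so the values do not check the knockout, which rests on the labels. Groups that did not overlap were common among the members, as in the whole table. In mTEChi, both Brg1-/- libraries were above both Brg1+/+ libraries at 27 of the 91 members (24.8% of all regions) and below both at 9 (11.7% of all regions). In mTEClo they were above at 21 (20.6% of all regions) and below at 18 (18.4% of all regions).

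The median log2 fold change in mTEChi was 0.08 over the Smarca4 members and 0.07 over the Smarca2 members, beside 0.22 over all tested regions. In mTEClo it was 0.23 at Smarca4 and -0.27 at Smarca2, beside 0.05 over all regions. These medians are descriptions of the windows and carry no test.

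The Smarca2 +142.8 kb region came nearest to a call. It had 19.5 and 6.86 units in Brg1-/- mTEChi, against 48.8 and 57.1 units in Brg1+/+ mTEChi. In mTEClo it had 47.4 and 39.4 units in Brg1-/- cells, against 46.4 and 70.7 units in Brg1+/+ cells. The Brg1-/- mTEChi libraries were the lowest of all 16 libraries at this region. The log2 fold change in mTEChi was -2.08 (SE 0.45), with an unadjusted p of 5.88e-05 and a limma adjusted p of 0.0865, so it was not called. Over 12 alternatives it lay between -2.77 and -1.39, with limma adjusted p of 0.0159 to 0.315. It passed the threshold after quantile normalization, after re-centring on the median, and without Brg1-/- mTEChi replicate 1 (log2 fold change -2.77, limma adjusted p 0.0159). The difference between the Brg1 effects in mTEChi and mTEClo was -1.69 (SE 0.64; limma adjusted p 0.601).

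The Smarca2 +147.9 kb region, in the same run of regions, had 59.3 and 63.9 units in Brg1-/- mTEChi, against 105.7 and 151.5 units in Brg1+/+ mTEChi. In mTEClo it had 45.0 and 46.1 units in Brg1-/- cells, against 20.1 and 41.1 units in Brg1+/+ cells. The Brg1-/- libraries were thus lower in mTEChi and higher in mTEClo, without overlap in either. Neither difference was called, at log2 fold changes of -1.03 (SE 0.38; limma adjusted p 0.317) and 0.64 (SE 0.38; limma adjusted p 0.855), and the difference between them was -1.67 (SE 0.53; limma adjusted p 0.511). The adjoining chr19:26827761-26828260 (+148.5 kb) had the opposite order in mTEChi, with 53.4 and 67.6 units in Brg1-/- cells, against 8.32 and 23.6 units in Brg1+/+ cells (log2 fold change 2.01; limma adjusted p 0.302). Adjoining regions of this run thus had uncalled differences of opposite sign.

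Of the other largest differences in mTEChi, chr19:26808104-26808603 (+128.8 kb) had 38.5 and 20.6 units in Brg1-/- cells, against 8.08 and 5.91 units in Brg1+/+ cells (log2 fold change 1.88). The Smarca2 region chr19:26845522-26846021 (+166.2 kb) had 29.6 and 6.99 units in Brg1-/- cells, against 34.5 and 67.6 units in Brg1+/+ cells (log2 fold change -1.66). At Smarca4, chr9:21494365-21494864 (+74.1 kb) had 19.2 and 44.1 units in Brg1-/- mTEChi, against 5.80 and 9.51 units in Brg1+/+ mTEChi (log2 fold change 1.84). These 3 pairs of groups did not overlap, and nor did the 3 named next, yet libraries of the same group differed several-fold at some of these regions. The Smarca4 region chr9:21525327-21525826 (+105.1 kb) had 13.8 and 59.0 units in Brg1-/- cells, against 8.54 and 9.51 units in Brg1+/+ cells (log2 fold change 1.57). The Smarca4 region chr9:21530643-21531142 (+110.4 kb) had 1.53 and 18.6 units in Brg1-/- cells, against 23.5 and 26.7 units in Brg1+/+ cells (log2 fold change -1.89), and chr9:21474296-21474795 (+54.0 kb) had 4.12 and 7.14 units, against 8.54 and 13.7 units (log2 fold change -0.88). None of these 6 was called (limma adjusted p 0.306 to 0.682).

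In mTEClo the largest difference at Smarca4 rested on a single library. The region chr9:21470272-21470771 (+50.0 kb) had 7.69 and 2.46 units in Brg1-/- cells, against 2.66 and 164.0 units in Brg1+/+ cells, a log2 fold change of -2.16 that became 0.58 without Brg1+/+ mTEClo replicate 2. Its other 15 libraries ranged widely too, with 96.0 units in Brg1-/- mTEChi replicate 1. The region chr9:21513781-21514280 (+93.5 kb) had 10.3 and 0.35 units in Brg1-/- cells, against 5.92 and 8.93 units in Brg1+/+ cells (log2 fold change -1.08, or 0.45 without Brg1-/- mTEClo replicate 2). The largest positive differences at Smarca4 were 1.41 at chr9:21453380-21453879 and 1.07 at chr9:21477425-21477924. At Smarca2, chr19:26698759-26699258 (+19.5 kb) had 0.52 and 0.43 units in Brg1-/- cells, against 3.03 and 2.93 units in Brg1+/+ cells (log2 fold change -1.43). It is a low region in mTEClo, with similar values in the libraries of each group. The others were chr19:26878865-26879364 at -1.26, chr19:26862755-26863254 at 1.22 and chr19:26837741-26838240 at 1.00, none of them called.

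**Figure D2:**
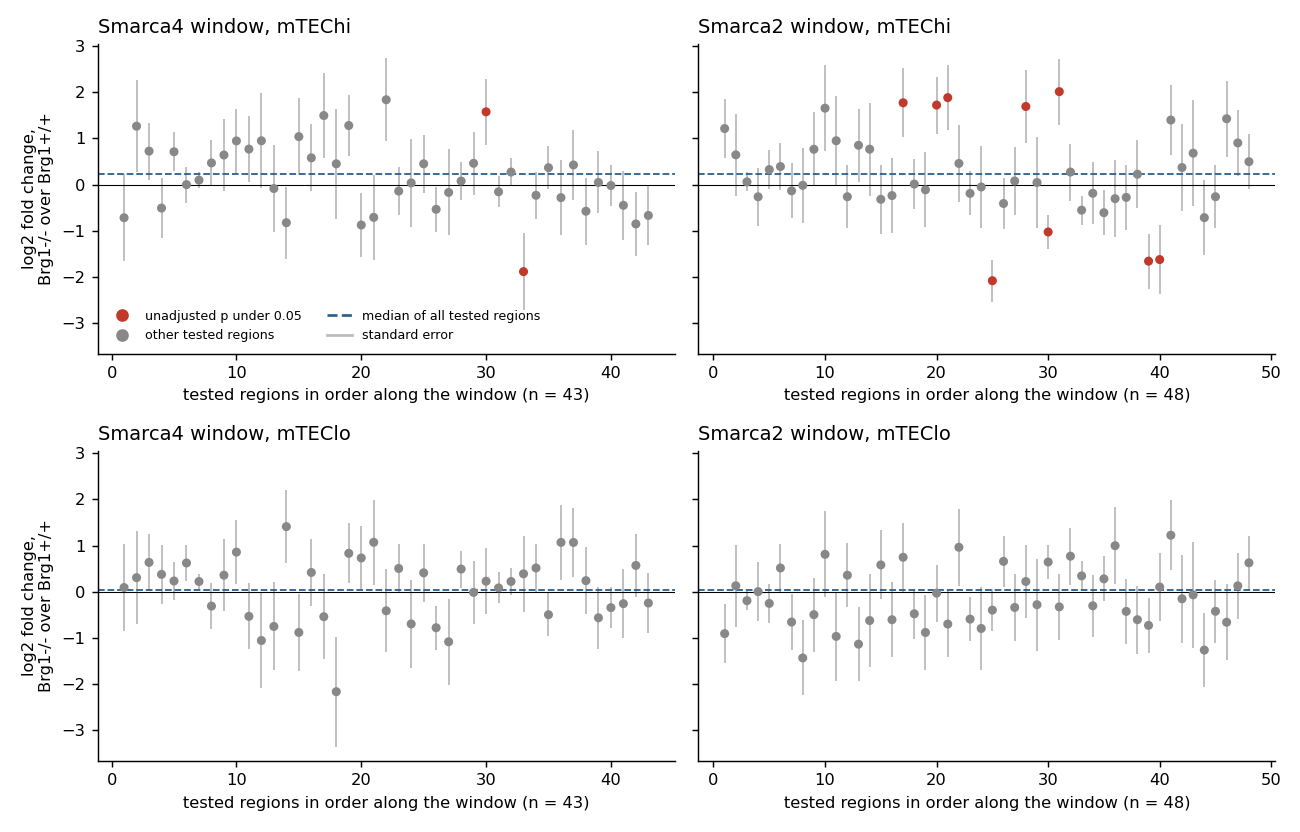
Log2 fold change (Brg1-/- over Brg1+/+, log2(signal + 1) scale) of each tested member in order along its window, with its standard error, in mTEChi (top) and mTEClo (bottom). The dashed line is the median of all 225281 tested regions, and red points are the 11 members with an unadjusted p under 0.05, all in mTEChi; 0 members were called.

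More members were called between the sorts than between the Brg1 genotypes, as in the whole table. limma called 11 of the 91 members between mTEChi and mTEClo in Brg1-/- cells (8.11% of all regions called), 12 in Brg1+/+ cells (13.0%), 16 in Aire-/- cells (11.4%) and 13 in Aire+/+ cells (8.79%). As shares of the members these were 12.1% in Brg1-/-, 13.2% in Brg1+/+, 17.6% in Aire-/- and 14.3% in Aire+/+, so the Brg1+/+ share was at the background. Most called members were higher in mTEChi. In Brg1-/- cells 10 were higher (6.61% of all regions) and 1 lower (1.5%), and in Brg1+/+ cells 11 were higher (9.21%) and 1 lower (3.75%). In Aire-/- cells 14 were higher (7.15%) and 2 lower (4.22%), and in Aire+/+ cells 9 were higher (5.14%) and 4 lower (3.65%). The table as a whole leaned the same way, with a median log2 fold change over all regions of 0.62 in Brg1-/-, 0.42 in Brg1+/+, 0.10 in Aire-/- and 0.16 in Aire+/+, beside 0.96, 0.58, 0.41 and 0.34 over the members in the same order of genotypes. After re-centring each library on its median, 6 members were called in Brg1-/- cells (3 higher and 3 lower), 8 in Brg1+/+ cells (6 higher and 2 lower) and 15 in Aire-/- cells (11 higher and 4 lower). After quantile normalization, 3 members (2 higher and 1 lower) were called in Brg1-/- cells and 8 (6 higher and 2 lower) in Brg1+/+ cells. The Aire line moved less, with 16 called in Aire-/- and 12 in Aire+/+ after quantile normalization, and 11 in Aire+/+ after re-centring. The shares of all regions called under these settings are not given here. Whether the falls were particular to the members therefore cannot be told from these counts.

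The counts also fell with fewer libraries, again without the share of all regions beside them. In Brg1-/- cells they were 7 and 3 without mTEChi replicates 1 and 2, and 4 and 5 without mTEClo replicates 1 and 2. In Brg1+/+ cells they were 8 and 7 without the mTEChi replicates and 5 and 8 without the mTEClo replicates. In Aire-/- cells they were 9 and 9 and then 10 and 8, and in Aire+/+ cells 10 and 8 and then 8 and 6, in the same order of omission. Of the 52 calls over the 4 genotypes, 16 held without each of the 4 libraries in turn, and these 16 lay in 7 regions.

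In at least 1 genotype, 28 of the 91 members were called, 30.8% beside 24.3% of all tested regions. These were 22 higher in mTEChi (16.7% of all regions) and 6 lower (7.68%). Of the 28, 11 lay in the Smarca4 window (10 higher and 1 lower) and 17 in the Smarca2 window (12 higher and 5 lower).

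The Smarca4 -6.0 kb region, 6.0 kb from the dominant one, separated the sorts most clearly. In mTEChi it had 166.0 and 189.2 units in Brg1-/-, 188.2 and 167.4 units in Brg1+/+, 145.95 and 150.6 units in Aire-/-, and 149.1 and 127.4 units in Aire+/+. In mTEClo it had 35.8 and 22.1 units in Brg1-/-, 25.9 and 12.3 units in Brg1+/+, 31.9 and 31.6 units in Aire-/-, and 10.2 and 18.97 units in Aire+/+. All 8 mTEChi libraries were thus above 127 units and all 8 mTEClo libraries below 36 units. The log2 fold change from mTEClo was 2.61 in Brg1-/-, 3.24 in Brg1+/+, 2.19 in Aire-/- and 3.22 in Aire+/+ (SE 0.39 each), with limma adjusted p of 0.000122, 3.41e-06, 0.00032 and 3.39e-06. The call held in all 4 genotypes under every alternative run and without each library in turn. The dominant region 6.0 kb away was uncalled between the sorts in all 4 genotypes, with log2 fold changes of 0.15 to 0.30.

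Only 3 members, all at Smarca4, were called higher in mTEChi in all 4 genotypes (3.30% of members, 1.34% of all regions), and the alternatives other than leaving out a library gave 1 to 4. In at least 3 genotypes 9 members were called higher (3.25% of all regions). The second was the Smarca4 +99.2 kb region. It had 90.0 and 124.5 units in Brg1-/- mTEChi, 88.4 and 114.0 units in Brg1+/+ mTEChi, 141.0 and 126.7 units in Aire-/- mTEChi, and 113.1 and 113.3 units in Aire+/+ mTEChi. The mTEClo libraries had 52.6 and 27.2 units in Brg1-/-, 26.3 and 27.0 units in Brg1+/+, 15.9 and 10.9 units in Aire-/-, and 17.1 and 21.3 units in Aire+/+. The sorts did not overlap, and the log2 fold changes were 1.46 in Brg1-/-, 1.87 in Brg1+/+, 3.25 in Aire-/- and 2.51 in Aire+/+. The Brg1-/- call was lost without mTEChi replicate 2 (log2 fold change 1.23) and without mTEClo replicate 2 (1.00). The third, chr9:21510958-21511457 (+90.7 kb), had log2 fold changes of 1.70 in Brg1-/-, 1.46 in Brg1+/+, 1.45 in Aire-/- and 2.62 in Aire+/+, and among these the Aire+/+ call alone held without each library in turn. After quantile normalization or re-centring, the -6.0 kb region alone was called in all 4 genotypes.

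The remaining Smarca4 members called higher in mTEChi lay from chr9:21498447-21498946 (+78.2 kb) to chr9:21555706-21556205 (+135.4 kb), with uncalled members among them. The +78.2 kb region had log2 fold changes of 0.93 in Brg1-/-, 1.58 in Brg1+/+, 2.80 in Aire-/- and 2.88 in Aire+/+, and all but the Brg1-/- value were called. The region chr9:21521977-21522476 (+101.7 kb) had 2.60 in Brg1-/-, 2.13 in Brg1+/+, 3.49 in Aire-/- and 1.98 in Aire+/+, and all but the Aire+/+ value were called. At +101.7 kb the Brg1-/- and Brg1+/+ calls were lost without any 1 of their 4 libraries, the Aire-/- call was lost without mTEClo replicate 1 (2.22), and a single genotype was called after quantile normalization or re-centring. The region chr9:21532643-21533142 (+112.4 kb) was called in Brg1+/+ at 2.04 and in Aire-/- at 2.29. Each of 4 other regions was called in a single genotype: chr9:21501333-21501832 (+81.1 kb) at 2.55 in Aire-/-, chr9:21536808-21537307 (+116.5 kb) at 2.61 in Aire+/+, chr9:21544866-21545365 (+124.6 kb) at 2.79 in Brg1+/+, and the +135.4 kb region at 1.58 in Aire+/+. The +78.2 kb calls in Aire-/- and Aire+/+ held without each library in turn. The Brg1+/+ call at +78.2 kb, both calls at +112.4 kb and the 4 calls in a single genotype each held in 1 or 2 of 4 such fits. The last member of the window, at +138.1 kb, was the only Smarca4 member called lower in mTEChi. It had 2.52 and 8.63 units in Aire+/+ mTEChi, against 35.6 and 42.1 units in Aire+/+ mTEClo (log2 fold change -2.77, limma adjusted p 0.00569), a call that held in 2 of 4 such fits. Its mTEChi libraries were below its mTEClo libraries in the other 3 genotypes as well, with uncalled log2 fold changes of -1.52 in Brg1-/-, -1.10 in Brg1+/+ and -1.62 in Aire-/-.

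At Smarca2 the dominant region went the other way from the -6.0 kb region of Smarca4. It had 145.8 and 154.0 units in Brg1-/- mTEChi, against 217.2 and 228.2 units in Brg1-/- mTEClo. It had 154.4 and 134.2 units in Brg1+/+ mTEChi, against 262.8 and 246.6 units in Brg1+/+ mTEClo. In the Aire line it had 188.1 and 156.0 units in Aire-/- mTEChi, against 254.9 and 220.3 units in Aire-/- mTEClo, and 171.7 and 118.2 units in Aire+/+ mTEChi, against 204.3 and 238.8 units in Aire+/+ mTEClo. It was lower in mTEChi without overlap in all 4 genotypes. limma called it in Brg1+/+ (-0.82, SE 0.20, adjusted p 0.00743) and Aire+/+ (-0.63, SE 0.20, adjusted p 0.0487) and not in Brg1-/- (-0.57, SE 0.20, adjusted p 0.0779) or Aire-/- (-0.47, SE 0.20, adjusted p 0.143). The number of genotypes with a call was 1 or 2 under most alternatives and 4 after re-centring, and calls were lost when libraries were left out. The Brg1+/+ call was lost without mTEChi replicate 2 (-0.72) and without mTEClo replicate 1 (-0.77). The Aire+/+ call was lost without mTEChi replicate 2 (-0.36), mTEClo replicate 1 (-0.74) or mTEClo replicate 2 (-0.52).

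**Figure D3:**
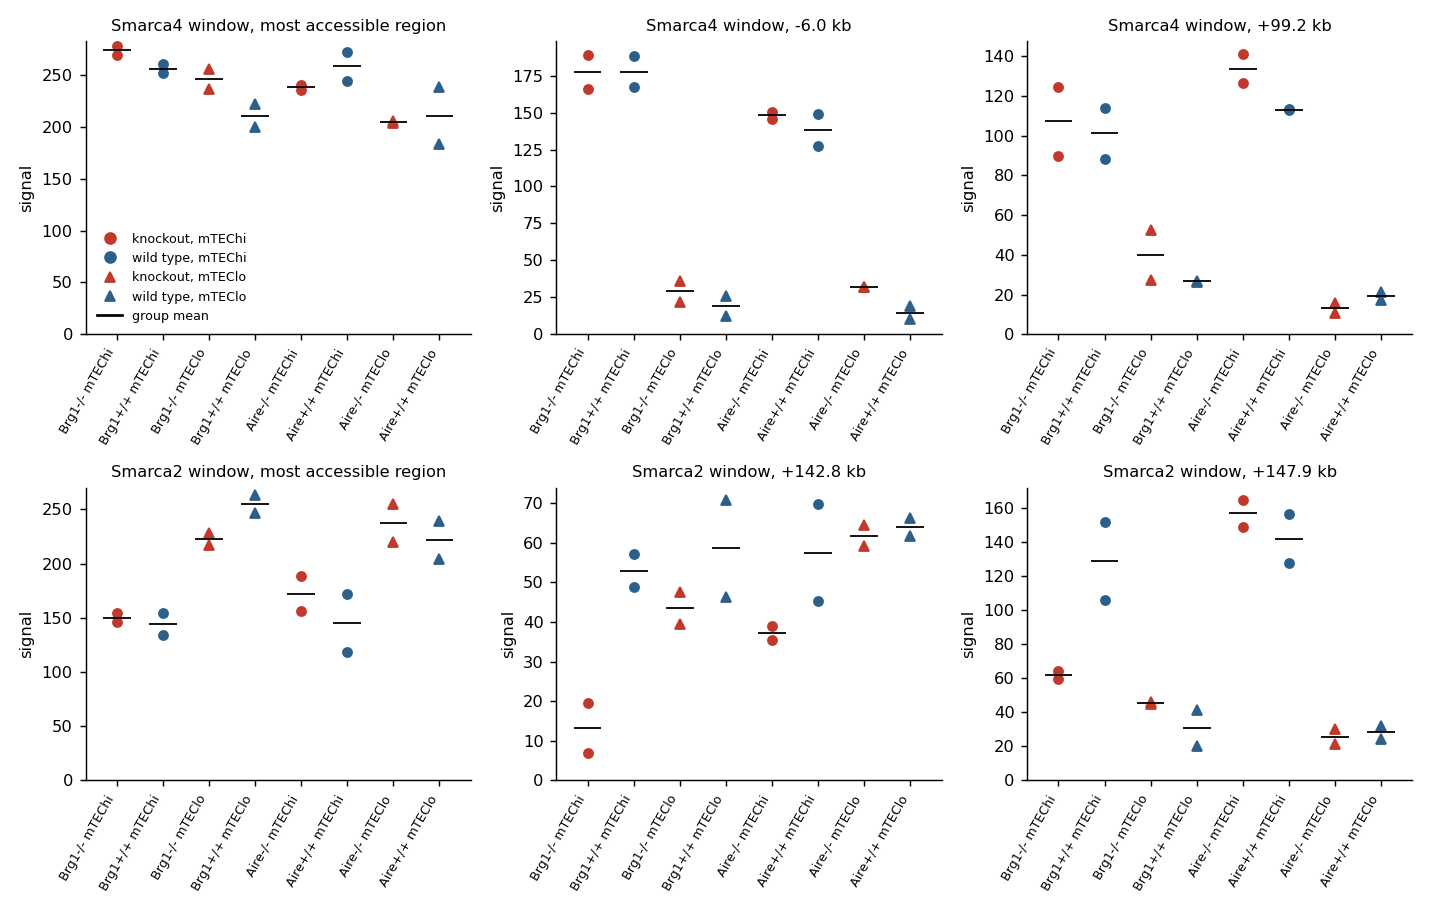
Signal (authors' normalised units) in each library of 6 members, with group means as bars: the 3 Smarca4 regions at the dominant position, -6.0 kb and +99.2 kb (top), and the 3 Smarca2 regions at the dominant position, +142.8 kb and +147.9 kb (bottom). The Smarca4 -6.0 kb region shows all 8 mTEChi libraries above 127 units and all 8 mTEClo libraries below 36 units, and the Smarca2 +142.8 kb region shows both Brg1-/- mTEChi libraries below 20 units.

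Of the 12 Smarca2 members called higher in mTEChi, 4 were called in 3 genotypes and 0 in all 4. The +147.9 kb region had 164.5 and 148.6 units in Aire-/- mTEChi, against 21.2 and 29.9 units in Aire-/- mTEClo. It had 156.2 and 127.3 units in Aire+/+ mTEChi, against 32.0 and 24.5 units in Aire+/+ mTEClo. The log2 fold change from mTEClo was 0.43 in Brg1-/- (limma adjusted p 0.502), 2.10 in Brg1+/+, 2.59 in Aire-/- and 2.29 in Aire+/+, and its 3 calls held under every alternative run and without each library in turn. The regions chr19:26833756-26834255 (+154.5 kb) and chr19:26852526-26853025 (+173.2 kb) were called in the same 3 genotypes. The +154.5 kb region had log2 fold changes of 1.27 in Brg1-/- (limma adjusted p 0.0975), 2.15 in Brg1+/+, 2.61 in Aire-/- and 2.29 in Aire+/+. The +173.2 kb region had 1.12 in Brg1-/- (limma adjusted p 0.353), 2.85 in Brg1+/+, 3.11 in Aire-/- and 2.72 in Aire+/+. At +154.5 kb the Aire+/+ call was lost without mTEClo replicate 1 (1.86), and the other 2 calls held without each library in turn. At +173.2 kb, leaving out each of 4 libraries in turn kept the call in 2 fits in Brg1+/+, 2 in Aire-/- and 1 in Aire+/+, with log2 fold changes of 1.80 to 2.87 where it was lost. The difference between Brg1-/- and Brg1+/+ in these sort effects is the interaction tested above, and it was not called at any of the 3, so a call in Brg1+/+ and none in Brg1-/- does not show a different effect.

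The fourth, the +19.5 kb region, was called in Brg1-/- (3.79), Brg1+/+ (2.38) and Aire-/- (3.83) and not in Aire+/+ (1.23). Its mTEClo libraries in the Brg1 line had 0.52 and 0.43 units in Brg1-/- and 3.03 and 2.93 units in Brg1+/+, so the fold change of Brg1-/- depends on the pseudocount of 1. Another 5 members were called higher in Brg1-/- alone: chr19:26720691-26721190 (+41.4 kb) at 3.04, chr19:26737750-26738249 (+58.5 kb) at 3.68, chr19:26804985-26805484 (+125.7 kb) at 3.01, the +148.5 kb region at 2.44 and chr19:26878865-26879364 (+199.6 kb) at 2.69. None of these 5 was called after quantile normalization, and after re-centring the +58.5 kb region alone was. Over the 4 fits that each left out 1 library, the +58.5 kb call held in 3, the +199.6 kb call in 2 and the other 3 calls in 0. Another 3 were called in Aire-/- alone: the +149.6 kb region at 1.20, chr19:26838815-26839314 (+159.5 kb) at 2.34 and chr19:26887012-26887511 (+207.7 kb) at 2.69. Their calls held in 2, 0 and 0 of the 4 such fits. At +19.5 kb the Aire-/- call held in all 4, the Brg1-/- call in 3 and the Brg1+/+ call in 0. Between Brg1-/- and Brg1+/+ the sort effects of these regions were not called as different either.

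The 5 Smarca2 members called lower in mTEChi were the dominant region and 4 weaker ones. The first member of the window, at -59.1 kb, had 7.57 and 6.27 units in Aire-/- mTEChi, against 31.8 and 44.9 units in Aire-/- mTEClo, and 9.12 and 3.74 units in Aire+/+ mTEChi, against 34.8 and 33.6 units in Aire+/+ mTEClo. It was called in Aire-/- (-2.30) and Aire+/+ (-2.35), was uncalled in Brg1+/+ (-1.04), and had the opposite sign in Brg1-/- (1.08, uncalled). The +142.8 kb region was called lower in mTEChi in Brg1-/- alone, with 19.5 and 6.86 units in mTEChi, against 47.4 and 39.4 units in mTEClo (log2 fold change -1.80, limma adjusted p 0.0127). The call was lost without Brg1-/- mTEChi replicate 2 (-1.11, limma adjusted p 0.196) and without Brg1-/- mTEClo replicate 1 (-1.67, limma adjusted p 0.100). The same sort difference was -0.12 in Brg1+/+, -0.72 in Aire-/- and -0.18 in Aire+/+, all uncalled. The region chr19:26779085-26779584 (+99.8 kb) was called in Aire+/+ at -2.60, and the +128.8 kb region was called in Aire-/- at -2.57. With 1 library left out in turn, the -59.1 kb call held in 0 of 4 fits in Aire-/- and 1 of 4 in Aire+/+, the +99.8 kb call in 0 and the +128.8 kb call in 1.

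**Figure D4:**
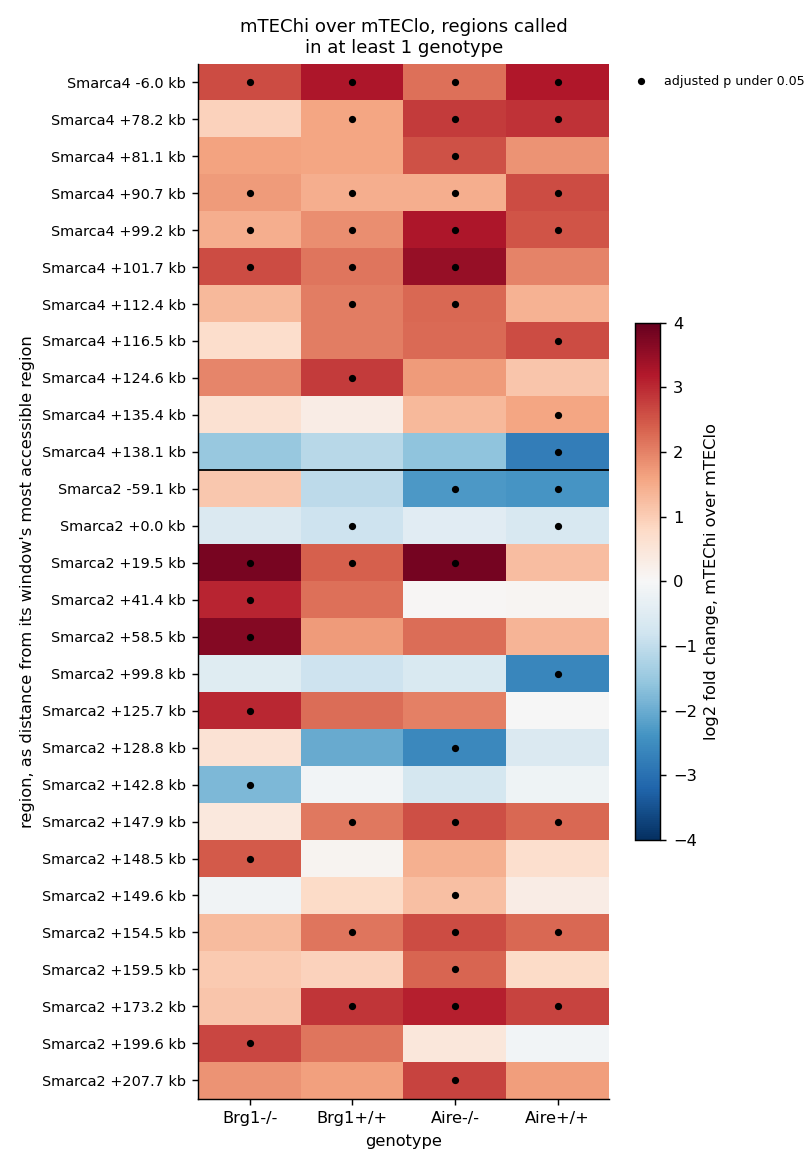
Log2 fold change (mTEChi over mTEClo, log2(signal + 1) scale) of the 28 members called in at least 1 genotype, with 1 row per region in order along the windows, 1 column per genotype and a dot where the limma adjusted p was under 0.05. The Smarca4 -6.0, +90.7 and +99.2 kb rows carry a dot in all 4 genotypes, and the Smarca2 rows at +147.9, +154.5 and +173.2 kb carry one in all but Brg1-/-.

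Groups that did not overlap were more frequent than calls. Both mTEChi libraries were above both mTEClo libraries in all 4 genotypes at 20 members, 13 at Smarca4 and 7 at Smarca2, where 9.9% of all tested regions did so. They were below in all 4 genotypes at 2 members, the Smarca4 +138.1 kb region and the dominant Smarca2 region, where 3.66% of all regions did so.

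The Aire knockout gave 0 calls among the 91 members in mTEChi (0.0209% of all regions called) and 0 in mTEClo (0.0% of all regions called). Without adjustment, limma gave 6 members a p under 0.05 in mTEChi (10.2% of all regions) and 3 in mTEClo (2.5% of all regions). The lowest unadjusted p in mTEChi was at chr19:26681666-26682165, a region 2.37 kb from the dominant Smarca2 one. It had 51.1 and 64.4 units in Aire-/- mTEChi, against 46.3 and 9.03 units in Aire+/+ mTEChi, so 1 Aire+/+ library was far below the rest. Its log2 fold change was 1.42 (SE 0.52; limma adjusted p 0.338), and it was called without Aire+/+ mTEChi replicate 1 (2.54; limma adjusted p 0.0128, over a range of 0.0128 to 0.912 across alternatives).

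The wild types of the lines were compared as well, where a difference of line and any batch that goes with it cannot be told apart. limma called 0 of the 91 members between Brg1+/+ and Aire+/+ in mTEChi (0.156% of all regions called) and 0 in mTEClo (0.0368% of all regions called). An unadjusted p under 0.05 was found at 4 members in mTEChi (10.5% of all regions) and at 1 in mTEClo (7.4% of all regions).

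Averaged over its members, each window was higher in mTEChi than in mTEClo, and so was the median of all regions. The mean log2(signal + 1) of the Smarca4 window was 4.59 ± 0.14 in Brg1-/- mTEChi, 4.56 ± 0.03 in Aire-/- mTEChi, 4.40 ± 0.14 in Aire+/+ mTEChi and 4.34 ± 0.12 in Brg1+/+ mTEChi (SD, n = 2 each). It was 3.97 ± 0.38 in Aire-/- mTEClo, 3.84 ± 0.03 in Aire+/+ mTEClo, 3.59 ± 0.25 in Brg1-/- mTEClo and 3.55 ± 0.04 in Brg1+/+ mTEClo (SD, n = 2 each). All 8 mTEChi libraries lay at 4.25 or above and all 8 mTEClo libraries at 4.24 or below. Among neighbours in this order, the libraries overlapped within the first pair, between Aire+/+ and Brg1+/+ mTEChi, between Aire-/- and Aire+/+ mTEClo, and between Brg1-/- and Brg1+/+ mTEClo.

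The mean of the Smarca2 window was 4.59 ± 0.10 in Brg1-/- mTEChi, 4.56 ± 0.41 in Aire-/- mTEChi, 4.34 ± 0.12 in Brg1+/+ mTEChi and 4.29 ± 0.38 in Aire+/+ mTEChi (SD, n = 2 each). It was 4.04 ± 0.06 in Aire+/+ mTEClo, 3.98 ± 0.13 in Aire-/- mTEClo, 3.71 ± 0.01 in Brg1+/+ mTEClo and 3.57 ± 0.26 in Brg1-/- mTEClo (SD, n = 2 each). Neighbours in this order overlapped throughout, except Aire-/- and Brg1+/+ mTEClo. The sorts overlapped in Aire+/+ alone.

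The mTEChi minus mTEClo difference at Smarca4 was 1.00 in Brg1-/-, 0.79 in Brg1+/+, 0.58 in Aire-/- and 0.56 in Aire+/+. At Smarca2 it was 1.016 in Brg1-/-, 0.63 in Brg1+/+, 0.58 in Aire-/- and 0.25 in Aire+/+. The median of all regions differed by 0.76 in Brg1-/-, 0.47 in Brg1+/+, 0.17 in Aire-/- and 0.32 in Aire+/+. Re-centring each library on that median left 0.24, 0.32, 0.42 and 0.24 at Smarca4 and 0.25, 0.17, 0.41 and -0.075 at Smarca2, in the same order of genotypes, so the direction at Smarca2 in Aire+/+ depends on the scaling.

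The Brg1-/- mTEChi mean exceeded the Brg1+/+ mTEChi mean by 0.25 at Smarca4 and 0.24 at Smarca2, and the groups did not overlap. The median of all regions moved further in the same direction, by 0.45, with 4.21 ± 0.24 in Brg1-/- mTEChi and 3.75 ± 0.12 in Brg1+/+ mTEChi (SD, n = 2 each). Re-centring each library on that median turned the differences to -0.20 at Smarca4 and -0.21 at Smarca2, so the direction depends on the scaling. In mTEClo the Brg1-/- and Brg1+/+ libraries overlapped in both windows.

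**Figure D5:**
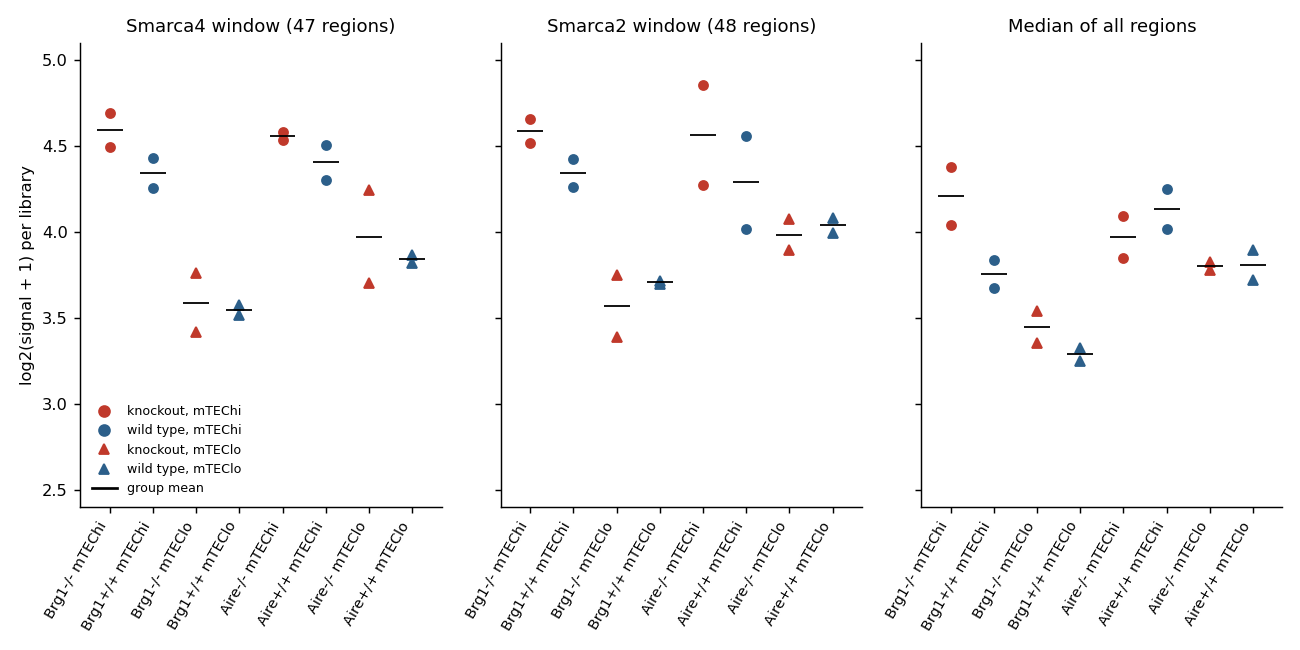
Mean log2(signal + 1) over the 47 Smarca4 members, mean over the 48 Smarca2 members, and median over all 250313 regions, in each of the 16 libraries (points; red knockout, blue wild type; circles mTEChi, triangles mTEClo), with group means as bars. All mTEChi libraries lie above all mTEClo libraries in the Smarca4 panel, and the table median in the right panel differs between the groups as well.

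Across the 8 group means, the windows followed each other with a Pearson r of 0.975, and followed the median of all regions with 0.891 for Smarca4 and 0.864 for Smarca2. The regions elsewhere whose pattern was most like the Smarca4 mean were chr5:112716137-112716636 (r 0.997), chr6:99379620-99380119 (r 0.995) and chr19:45659175-45659674 (r 0.995). Those most like the Smarca2 mean were chr14:75845317-75845816, chr10:34062710-34063209 and chr4:83358038-83358537 (r 0.994 each). These values are the highest among all tested regions outside the windows over 8 points that share the difference between the sorts, and they are given as descriptions.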

How the data were processed

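ATAC-seq was measured in 16 libraries, in 8 groups of 2 taken from the labels. The authors deposited normalised signal values for 250313 regions of 500 bases. The submitters' processing notes name Bowtie2, MACS2 and mm9 and no versions. The treatment of the Tn5 offset and of duplicates, the definition of regions and the scaling of libraries are not given in the sources used here. Deposited signal values are not whole counts, so no count model was used and depth is unknown.

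Members were picked by position in Python 3.11.15 with pandas 2.3.3. Positions are printed counted from 1. Signal was analysed as log2(signal + 1), so fold changes understate those of low regions. A minimum mean at the 10th percentile (7.48) kept 225281 regions. With limma 3.58.1 (R 4.3.3), 1 mean per group was fitted over all 16 libraries, with trend and robust settings and 8 residual degrees of freedom. Calls are two-sided, at p under 0.05 after Benjamini-Hochberg adjustment over all tested regions, in 11 contrasts. As a check of the code, the fit was run on simulated data with independent noise and known effects. Its recovery rates are not given here, so that check does not bear on the uncalled members.

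The members and the naming rule were chosen with earlier results of these data known. Named were members called in any contrast, the 4 with the highest mean per window, the 2 largest rises and 2 largest falls per window and Brg1 contrast, and those at the window ends; members named beyond these were chosen after their values were seen. Likeness was Pearson r over the 8 group means. Planned counts at other SWI/SNF genes and at cell type markers were not run, since gene positions on mm9 were not used here. Alternatives were a pseudocount of 0.5 or 5, no filter or the 50th percentile, quantile normalization, re-centring on the median, the libraries of the lines compared alone, a replicate block, and each library left out.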

Additional observations from a re-analysis of the deposited data

How the results depend on the processing

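With 2 libraries per group, no stated depth and a scaling that is not known, differences at these loci are poorly resolved, and not only small ones. The uncalled Brg1-/- against Brg1+/+ log2 fold changes in mTEChi ranged from -2.08 to 2.01 in the Smarca2 window. The Brg1-/- against Brg1+/+ count in mTEChi was 1 after quantile normalization and 1 after re-centring, beside 0, and 0 to 1 without each library in turn. The count in Brg1-/- between the sorts was 3 after quantile normalization and 6 after re-centring, beside 11. Without each library in turn the sort counts were 3 to 7 in Brg1-/-, 5 to 8 in Brg1+/+, 8 to 10 in Aire-/- and 6 to 10 in Aire+/+. These fits leave 1 library in a group, which is assumed to vary like the others. For the changes under scaling the cause was not tested. The share of all regions called under each alternative is not given here, so these counts do not show a change particular to the members. The Aire-/- against Aire+/+ count in mTEChi was 0 to 1, and the counts of the other contrasts stayed at 0. The mean log2 level of Brg1-/- minus Brg1+/+ mTEChi became 0.0082 after quantile normalization and -0.20 after re-centring at Smarca4, and -0.012 and -0.21 at Smarca2. Without each library in turn it was 0.15 to 0.35 at Smarca4 and 0.16 to 0.33 at Smarca2. In mTEClo the range was -0.13 to 0.21 at Smarca4 and -0.32 to 0.04 at Smarca2. The mTEChi minus mTEClo level at Smarca4 became 0.75, 0.34 and 0.24 in Brg1-/- with a pseudocount of 5, quantile normalization and re-centring, and 0.62, 0.33 and 0.32 in Brg1+/+. In Aire+/+ it became 0.43 after quantile normalization and 0.24 after re-centring. At Smarca2 the same settings gave 0.72, 0.32 and 0.25 in Brg1-/- and 0.48, 0.17 and 0.17 in Brg1+/+, and re-centring gave -0.075 in Aire+/+. Without each library in turn, the sort difference at Smarca4 was 0.83 to 1.18 in Brg1-/-, 0.71 to 0.88 in Brg1+/+, 0.31 to 0.86 in Aire-/- and 0.46 to 0.66 in Aire+/+. At Smarca2 it was 0.84 to 1.20, 0.55 to 0.72, 0.29 to 0.87 and -0.02 to 0.52 in the same order. Of 16 named Brg1 fold changes, 14 kept their sign throughout, and the Smarca4 +50.0 kb and +93.5 kb values in mTEClo ranged from -4.91 to 0.58 and from -2.62 to 0.45 as 1 library was left out. Same-numbered libraries did not deviate together (correlations of -0.018 to 0.034). Such values cannot show whether same-numbered libraries came from the same mice, so any pairing is unknown. With the replicate block the counts were 11 in Brg1-/-, 12 in Brg1+/+, 16 in Aire-/- and 12 in Aire+/+ between the sorts, and 0 in the other contrasts.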
